A study of Mus musculus with 14 samples.

Results

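Myeloid cells of brain metastases (BrM) were compared with those of spleen and bone marrow for 10 genes that encode granule proteins and secreted proteins of neutrophils. The genes were Ngp, Camp, Ltf, Lcn2, Chil1, Fcnb, Pglyrp1, Hp, S100a8 and S100a9. They were chosen by name, as 10 of 19057 named genes on the array, and all of their 15 probes of 45281 were used. The study hybridized RNA of sorted GFP+CD11b+ cells of C57Bl/6J mice aged 14 weeks to 14 MouseWG-6 v2 arrays from Illumina. Tumor-bearing mice had been lethally irradiated and reconstituted with hematopoietic stem cells of mice carrying GFP under the ubiquitin C promoter, so that GFP marked blood cells of donor origin. How the naive mice came to carry GFP+ cells is not given in the sources used here. CD11b is an integrin of myeloid cells.

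There were 4 tumors of PyMT cells (PyMT BrM) and 2 of EO771 cells (EO771 BrM). Mice with PyMT BrM gave 3 spleens and 1 bone marrow, and naive mice 2 of each tissue. Both lines derive from breast tumors of mice, and BrM were taken 2 weeks after intracranial implantation. The naive mice stood in for mice with EO771 tumors, whose spleen and marrow cells were not viable. The tumor line and whether the controls came from tumor-bearing mice therefore cannot be told apart. The code of EO771 BrM 2 names a pair of numbers and the naive bone marrow codes share a stem. The labels do not say whether these mark a pool and repeats of 1 mouse. The paper counts 2 biological replicates each for EO771 BrM and naive bone marrow. It also counts 4 spleens of mice with PyMT BrM, whereas 3 are among the samples used here. Codes are also shared across tissues and may name the mouse. One stands for PyMT BrM 3, PyMT spleen 1 and the PyMT bone marrow, one for PyMT BrM 2 and PyMT spleen 2, one for PyMT BrM 4 and PyMT spleen 3, and one for naive spleen 1 and both naive bone marrow samples. P-values measure the spread between these arrays.

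Neutrophils build their granules in waves while they mature in bone marrow. Azurophil granules with myeloperoxidase and elastase come first, specific granules with lactoferrin and cathelicidin follow, and gelatinase granules come last. The RNAs of specific granule proteins are known to be abundant in myelocytes and metamyelocytes and to decline in mature neutrophils, whereas S100a8 and S100a9 RNA, which encodes the subunits of the cytosolic protein calprotectin, persists in mature cells and also occurs in monocytes. The transcription factor C/EBP epsilon, encoded by Cebpe, is required for specific granules.

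Camp, Ngp and Ltf lie within a short stretch of chromosome 9 of the GRCm38 annotation, at chr9:109847377-109849456, chr9:110419808-110423012 and chr9:111019292-111042766. The gaps between them are 570 and 596 kb. S100a8 (chr3:90669071-90670034) and S100a9 (chr3:90692630-90695721) are neighbors 22.6 kb apart. Lcn2 (chr2:32384637-32387739) and Fcnb (chr2:28076479-28084910) share a chromosome, and Chil1 (chr1:134182156-134190031), Pglyrp1 (chr7:18884690-18890438) and Hp (chr8:109575128-109579172) lie on their own.

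The promoters below are shown because Ngp and Ltf had among the largest falls in BrM as differences of mean log2 signal, Camp fell as far without the motif marked here, and S100a8 had the smallest fall. Each run holds 300 bases around the annotated start, most of them upstream, written 5′ to 3′ on the strand of the gene, from RefSeq on GRCm38.p6. Capitals mark the C/EBP core TTGCNNAA on either strand. The windows are chr9:110419558-110419857 (plus strand) for Ngp, chr9:111019042-111019341 (plus) for Ltf, chr9:109849407-109849706 (minus) for Camp and chr3:90668821-90669120 (plus) for S100a8.
Ngp: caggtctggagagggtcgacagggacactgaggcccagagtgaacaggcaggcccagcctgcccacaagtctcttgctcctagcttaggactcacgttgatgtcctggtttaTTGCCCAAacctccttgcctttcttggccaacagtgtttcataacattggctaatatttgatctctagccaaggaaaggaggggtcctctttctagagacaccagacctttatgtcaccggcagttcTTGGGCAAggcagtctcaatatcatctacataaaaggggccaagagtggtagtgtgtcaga
Ltf: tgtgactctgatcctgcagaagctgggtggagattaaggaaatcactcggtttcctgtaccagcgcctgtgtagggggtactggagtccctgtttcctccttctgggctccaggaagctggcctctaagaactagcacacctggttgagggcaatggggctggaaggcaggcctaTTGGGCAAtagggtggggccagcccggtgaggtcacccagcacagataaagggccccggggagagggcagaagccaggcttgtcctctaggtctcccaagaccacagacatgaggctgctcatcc
Camp: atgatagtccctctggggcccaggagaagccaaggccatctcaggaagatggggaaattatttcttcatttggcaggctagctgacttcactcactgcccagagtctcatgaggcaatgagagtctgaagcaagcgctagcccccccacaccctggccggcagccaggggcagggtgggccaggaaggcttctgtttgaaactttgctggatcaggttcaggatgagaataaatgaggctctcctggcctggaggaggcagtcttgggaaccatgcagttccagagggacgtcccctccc
S100a8: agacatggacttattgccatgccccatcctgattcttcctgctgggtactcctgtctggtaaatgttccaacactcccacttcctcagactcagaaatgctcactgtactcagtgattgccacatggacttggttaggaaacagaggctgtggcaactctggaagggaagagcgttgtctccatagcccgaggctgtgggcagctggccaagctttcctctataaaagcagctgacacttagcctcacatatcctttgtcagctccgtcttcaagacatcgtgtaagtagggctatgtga

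Of the 10 genes, 9 matched a promoter. The C/EBP core was present in 5 of the 9 (Ngp, Ltf, Lcn2, Fcnb and S100a9), against 10.8% of all 32851 promoters of the same length. Counted from 0 at the start base, it stood at -138 to -131 and at -11 to -4 in Ngp, and at -75 to -68 in Ltf. The core GAGGAA of PU.1, a transcription factor of myeloid cells, was searched on both strands and was in 4 of the 9 (Lcn2, S100a8, Pglyrp1 and Ltf), against 28.3% of all promoters. TATAAA was in 2 of the 9 (S100a8 and S100a9), against 13.6%. None of these matches overlapped another motif. They are matches of letters, and neither binding nor use of these sites was measured.

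Values are log2 signals after quantile normalization by the authors. The median signal of every array was 4.06 and the brightest 14.58. Values near the brightest signal leave little room for a difference, and values near the median lie close to background, so that a fold against them is limited by background. A gene was called where limma, with adjustment over all 45281 probes, gave an adjusted p under 0.01. Where a gene had more than 1 probe, the brightest over all arrays stands for it, and values of the others are given for part of the comparisons. The array labelled PyMT spleen 2 stood apart from the other spleens. Over all probes it had a mean Pearson r of 0.903 with the other spleens and 0.942 with the bone marrow arrays, whereas the remaining 4 spleens had 0.924 to 0.929 and 0.897 to 0.925. It had the lowest B cell and the highest azurophil granule and platelet marker means of the 5 spleens. Results on spleens are therefore given with and without it where they turn on it. PyMT BrM 1 was the lowest BrM array for 6 of the 10 genes and is treated in the same way.

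**Figure D1:**
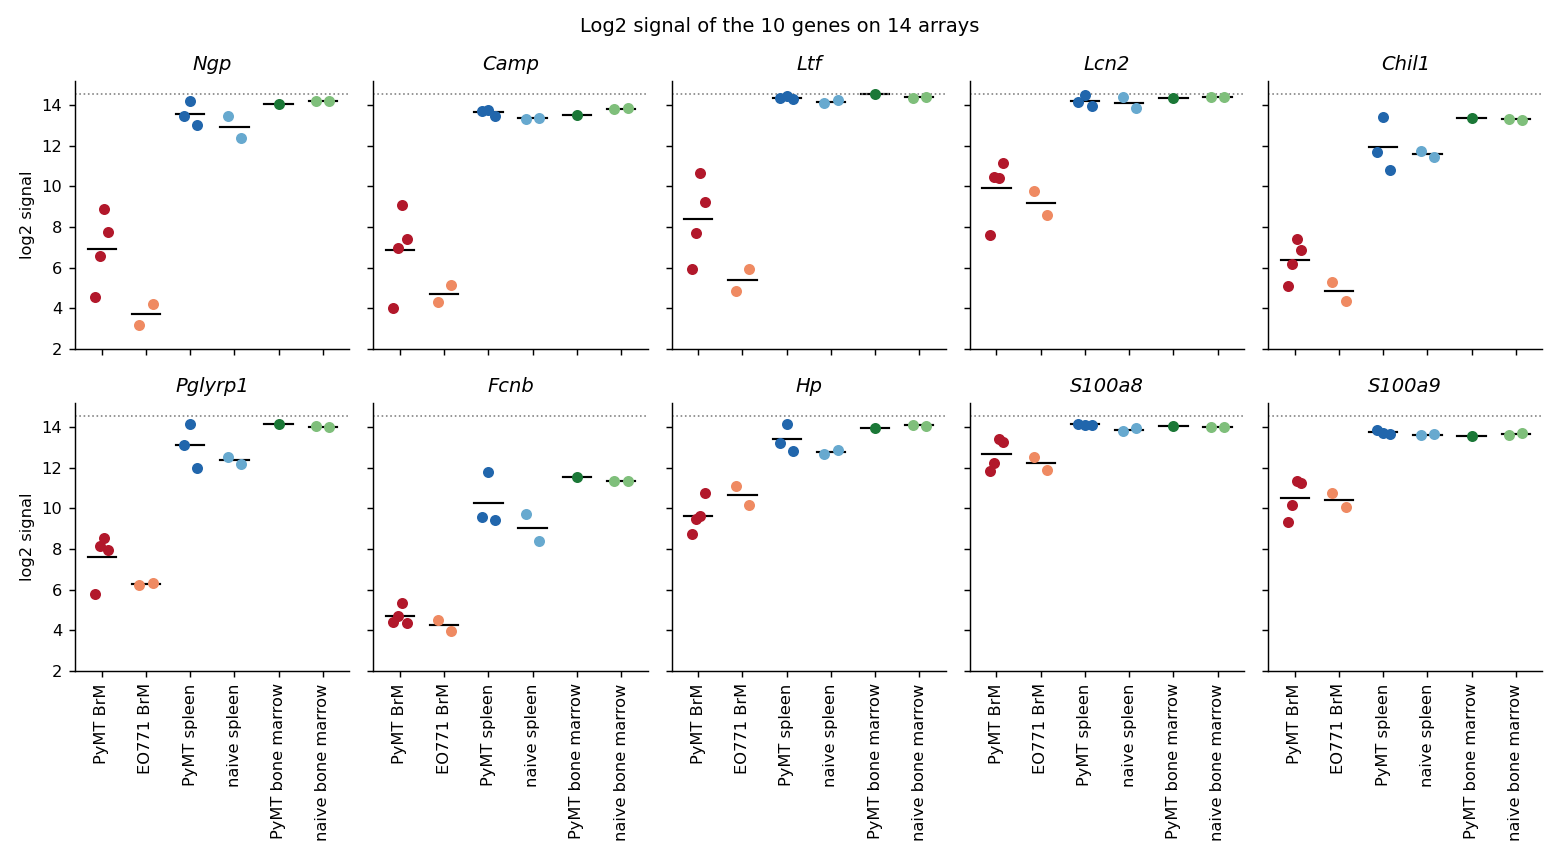
Log2 signal of the 10 genes (vertical axis) on 14 arrays in 6 conditions. Points are arrays, black bars are condition means and the dotted line is the brightest signal of an array, 14.58. Every BrM array lies below every spleen and bone marrow array for all 10 genes, and S100a8 has the smallest gap.

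All 10 genes were lower in BrM than in spleen and bone marrow, with no overlap of arrays for any of them. The median log2 difference of the 10 was -5.99, against -0.01 over all probes. Among all probes, 3.12% were called lower and 2.81% had every BrM array below all others. All 15 probes of the 10 genes were called lower. The falls ran from -7.78 for Ngp to -1.49 for S100a8. As log2 ratios of linear means, Ngp, Camp and Ltf had -6.64, -6.37 and -5.61, folds smaller by over 1.5 times, and Chil1 (-6.46), Fcnb (-6.22) and Pglyrp1 (-5.98) then lay below Ltf. In cells sorted in bulk, fewer cells of a type and less RNA per cell cannot be told apart.

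Ngp encodes neutrophilic granule protein, a cystatin-like protein of specific granules. It had 4.53, 6.58, 8.87 and 7.76 in PyMT BrM and 3.17 and 4.21 in EO771 BrM, against 13.47, 14.22 and 13.01 in PyMT spleens, 13.50 and 12.37 in naive spleens, 14.09 in PyMT bone marrow and 14.21 and 14.21 in naive bone marrow. The BrM arrays spread over 5.71 log2 units, whereas the 8 others stayed within 1.85. The difference was -7.78 (SE 0.72, limma adjusted p = 2.63e-06), 220-fold, and this probe had the lowest difference of the array. EO771 BrM 1 was above only 18.9% of the probes of its array.

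Camp encodes the cathelicidin antimicrobial peptide precursor. It had 3.99, 6.97, 9.10 and 7.43 in PyMT BrM and 4.28 and 5.13 in EO771 BrM, against 13.70, 13.78 and 13.48 in PyMT spleens, 13.32 and 13.40 in naive spleens, 13.53 in PyMT bone marrow and 13.83 and 13.85 in naive bone marrow. The 8 spleen and bone marrow arrays lay within 0.52 of each other and the BrM arrays within 5.10. The difference was -7.46 (SE 0.62, limma adjusted p = 7.54e-07), 176-fold.

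Ltf encodes lactoferrin, the iron-binding protein of specific granules. It had 5.93, 7.69, 10.68 and 9.23 in PyMT BrM and 4.84 and 5.91 in EO771 BrM, against 14.37, 14.46 and 14.32 in PyMT spleens, 14.11 and 14.25 in naive spleens, 14.58 in PyMT bone marrow and 14.37 and 14.43 in naive bone marrow. All control arrays were within 0.46 of each other and close to the brightest signal, and the PyMT bone marrow value was that signal. The difference was -6.98 (SE 0.69, limma adjusted p = 5.19e-06). A dimmer probe of Ltf had 3.66 to 5.39 in BrM and 8.28 to 12.36 in spleen and bone marrow, with a difference of -6.55 (SE 0.63).

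Lcn2 encodes lipocalin 2, which binds bacterial siderophores. It had 7.63, 10.49, 10.43 and 11.14 in PyMT BrM and 9.78 and 8.59 in EO771 BrM, and 13.85 to 14.50 in the 8 spleen and bone marrow arrays. PyMT BrM 1 was the lowest. The difference was -4.58 (SE 0.42, limma adjusted p = 2.57e-06), 23.9-fold, and without PyMT BrM 1 it was -4.17 (SE 0.33).

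Chil1 encodes a chitinase-like protein of specific granules that binds chitin without cleaving it, and Pglyrp1 a peptidoglycan recognition protein. Chil1 had 4.37 to 7.40 in BrM, 10.79 to 13.42 in spleens and 13.30 to 13.38 in bone marrow, a difference of -6.52 (SE 0.53, limma adjusted p = 6.54e-07). Pglyrp1 had 5.80 to 8.56 in BrM, 12 to 14.18 in spleens and 14.01 to 14.16 in bone marrow, a difference of -6.11 (SE 0.50, adjusted p = 6.80e-07). In both genes the spleens other than PyMT spleen 2 lay below all bone marrow arrays, an order whose share over all probes was not counted. The dimmer Pglyrp1 probe had a difference of -4.90 (SE 0.35).

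Fcnb encodes ficolin B, a lectin that recognizes sugars on microbes. Its values were 4.40, 4.71, 5.33 and 4.36 in PyMT BrM and 4.52 and 3.98 in EO771 BrM, against 9.57, 11.82 and 9.43 in PyMT spleens, 9.72 and 8.40 in naive spleens, 11.57 in PyMT bone marrow and 11.35 and 11.37 in naive bone marrow. Among the 10 genes it was the only one whose BrM arrays (range 1.35) were spread less than the 8 others (range 3.42), and all its BrM values lay near the median signal of the array. The difference was -5.86 (SE 0.49, limma adjusted p = 7.56e-07), with -5.99 (SE 0.51) for the second probe.

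Hp encodes haptoglobin, which binds free hemoglobin and is made in the liver and stored in neutrophil granules. It had 8.76, 9.46, 9.63 and 10.75 in PyMT BrM and 11.12 and 10.16 in EO771 BrM, against 13.22, 14.16 and 12.85 in PyMT spleens, 12.69 and 12.90 in naive spleens, 13.99 in PyMT bone marrow and 14.12 and 14.09 in naive bone marrow. Its highest BrM array was EO771 BrM 1, unlike the other 9 genes, which were highest in PyMT BrM 3 (8 genes) or PyMT BrM 4 (Lcn2). The difference was -3.52 (SE 0.37, limma adjusted p = 1.03e-05), and the 2 dimmer probes had -3.54 (SE 0.47) and -3.56 (SE 0.47). Of 4 hepatocyte markers (Alb, Apoa1, Ttr and Serpina1a), 0 were called and 0 had an unadjusted p under 0.05 by limma. Ttr, which the choroid plexus makes as well, had 9.89 in PyMT BrM 4 and 7.02 in EO771 BrM 1, against 3.47 to 4.43 in the other BrM arrays and 3.35 to 4.53 in spleen and bone marrow. These were the BrM arrays with the highest Hp (10.75 and 11.12), and the part of other cells in Hp was not tested.

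S100a8 had 11.86, 12.24, 13.44 and 13.29 in PyMT BrM and 12.53 and 11.92 in EO771 BrM, against 14.19, 14.12 and 14.14 in PyMT spleens, 13.83 and 13.96 in naive spleens, 14.07 in PyMT bone marrow and 14.01 and 14.03 in naive bone marrow. S100a9 had 9.34, 10.17, 11.36 and 11.24 in PyMT BrM and 10.75 and 10.07 in EO771 BrM, and 13.58 to 13.89 in the 8 others. Both genes had the same order of the 6 BrM arrays, with PyMT BrM 3 highest and PyMT BrM 1 lowest. The differences were -1.49 (SE 0.24, limma adjusted p = 5.31e-04), 2.82-fold, for S100a8 and -3.20 (SE 0.27, adjusted p = 7.54e-07), 9.18-fold, for S100a9. The S100a8 values of spleen and bone marrow lay close to the brightest signal of 14.58.

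The control tissues were then separated. Against spleen alone all 10 genes were called lower in BrM (3.08% of all probes), with a median of -5.49, and against bone marrow alone all 10 were called lower too (3.60% of all probes), with a median of -7.07. These comparisons share the BrM arrays. Ngp had -7.94 (SE 0.65, limma adjusted p = 1.56e-05) against spleen and -8.84 (SE 0.78, adjusted p = 3.31e-05) against bone marrow. For Fcnb the values were -5.19 (SE 0.44) and -6.99 (SE 0.52), and for Chil1 -6.17 (SE 0.50) and -7.74 (SE 0.60). S100a9 had -3.23 (SE 0.34) and -3.16 (SE 0.41), and S100a8 had -1.55 (SE 0.29, adjusted p = 0.00395) and -1.58 (SE 0.35, adjusted p = 0.00934). For PyMT BrM minus PyMT bone marrow in the fit of all 14 arrays, 5 genes were called lower (Ngp, Chil1, Fcnb, Pglyrp1 and Hp), where 0.585% of all probes were. The 1 PyMT bone marrow array was taken to vary like the other conditions.

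**Figure D2:**
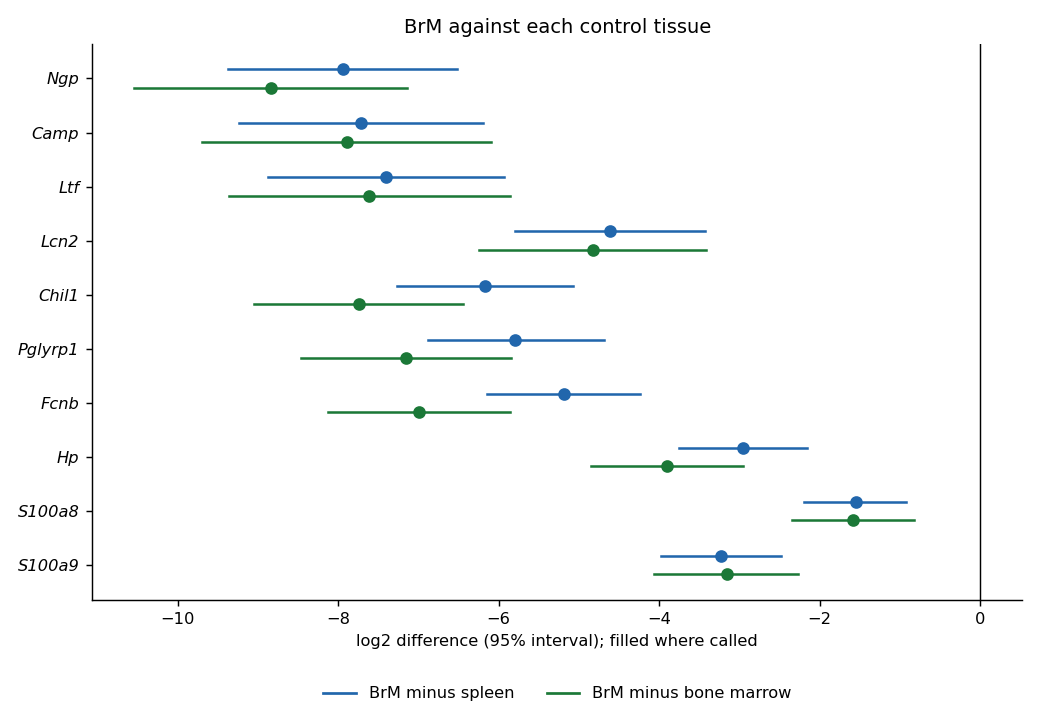
Log2 difference (horizontal axis, points, with 95% intervals as lines) of the 10 genes between BrM and spleen (blue) and between BrM and bone marrow (green). All points are filled, which marks a limma adjusted p under 0.01, and the blue and green points of Chil1, Pglyrp1 and Fcnb lie farther apart than those of Camp, Ltf, S100a8 and S100a9. Ltf is drawn by its brighter probe, close to the brightest signal in spleen and bone marrow. Its dimmer probe had -5.77 (SE 0.62) against spleen and -7.92 (SE 0.74) against bone marrow.

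Between the control tissues themselves 0 of the 10 genes were called by limma, where 0.00442% of all probes were called either way. By limma 3 of the 10 had an unadjusted p under 0.05. Of all 45281 probes 3894 (higher in spleen) and 3420 (lower) had one. The median difference of spleen minus bone marrow was -0.56. Fcnb had -1.80 (SE 0.53, adjusted p = 0.133), Chil1 -1.58 (SE 0.61, adjusted p = 0.223) and Pglyrp1 -1.36 (SE 0.61, adjusted p = 0.298). The other 7 had between -0.94 (Hp) and 0.06 (S100a9). The overlap of spleen and bone marrow came from PyMT spleen 2 for Ngp, Hp, Fcnb, Chil1 and Pglyrp1. The share of all probes for which this holds was not counted. Over all probes PyMT spleen 2 was also the spleen most like bone marrow. Without that array 1 of the 10, Fcnb, was called lower in spleen, with -2.19 (SE 0.35, adjusted p = 0.00233), where 2.85% of all probes were. Chil1 had -1.94 (SE 0.50, adjusted p = 0.0304), whereas S100a8 and S100a9 had -0.01 (SE 0.38) and 0.08 (SE 0.45). Between naive spleen and naive bone marrow, 2 against 2 arrays, Fcnb had -2.30 (SE 0.70, adjusted p = 0.149). This was a contrast in the fit of all 14 arrays, so its SE draws on all conditions. In these naive arrays 8 of the 10 genes had both spleens below both bone marrow arrays, against 27.8% of all probes.

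For Ltf the difference between the control tissues depended on the probe. The brighter probe, close to the brightest signal throughout, had -0.21 (SE 0.82). The dimmer probe had 8.99, 12.03 and 8.28 in PyMT spleens and 10.51 and 9.01 in naive spleens, against 11.55 in PyMT bone marrow and 12.36 and 12.23 in naive bone marrow, a difference of -2.16 (SE 0.75, limma adjusted p = 0.184). The dimmer Hp probes had -1.30 (SE 0.52) and -1.21 (SE 0.50), against -0.94 (SE 0.44) for the brightest. None of these was called.

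Within the PyMT model, 4 BrM against 3 spleens and 1 bone marrow, all 10 genes were called lower (1.87% of all probes), with a median of -5.82. In the EO771 comparison, 2 BrM against the 4 naive arrays, 9 were called lower (1.14% of all probes), with a median of -6.44. The exception was S100a8, with -1.73 (SE 0.38, limma adjusted p = 0.0127). Of the 15 probes 12 were called, and the Hp call rested on the brightest of its probes (-2.81, SE 0.57, adjusted p = 0.00823), since the 2 dimmer probes had -2.53 (SE 0.70, adjusted p = 0.0449) and -2.57 (SE 0.68, adjusted p = 0.0365). Ngp had -6.77 (SE 0.73) in the PyMT comparison and -9.89 (SE 0.89) in the EO771 comparison. When EO771 BrM 2 was left out, 5 genes were called in the EO771 comparison (Ngp, Camp, Ltf, Chil1 and Pglyrp1, against 0.398% of all probes), the lone EO771 BrM array being assumed to vary like the other groups. With the shared code as a fixed block over the 3 codes that hold PyMT BrM and spleen, 6 of the 10 genes were called lower in the PyMT comparison (not Chil1, Hp, S100a8 and S100a9), where 0.0928% of all probes were.

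The difference between the PyMT and EO771 comparisons was called by limma for 0 of the 10 genes, where 0.130% of all probes were called. An unadjusted p under 0.05 by limma was found for 2 of the 10. Of all 45281 probes 2008 (above 0) and 2020 (below 0) had one. The difference was 3.12 (SE 1.15, adjusted p = 0.413) for Ngp and 2.87 (SE 1.12, adjusted p = 0.448) for Ltf. Hp had -1.09 (SE 0.74, adjusted p = 0.723).

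PyMT BrM were set directly against EO771 BrM. By limma 0 of the 10 genes were called, whereas 1.59% of all probes were. An unadjusted p under 0.05 by limma was found for 4 of the 10. Of all 45281 probes 4915 (higher in PyMT BrM) and 4332 (lower) had one. Ngp was higher in each PyMT BrM than in either EO771 BrM, with a difference of 3.25 (SE 0.90, adjusted p = 0.0555), and so was Ltf, with 3.01 (SE 0.93, adjusted p = 0.0811). This order of arrays held for 18.8% of all probes. Camp had 2.16 (SE 0.96, adjusted p = 0.226), Chil1 1.57 (SE 0.69, adjusted p = 0.225) and Pglyrp1 1.34 (SE 0.69, adjusted p = 0.307). S100a9 had 0.12 with a 95% interval of -0.91 to 1.15, and Hp -0.99 (SE 0.50, adjusted p = 0.300). The dimmer Hp probes had -1.44 (SE 0.59, adjusted p = 0.186) and -1.63 (SE 0.57, adjusted p = 0.124), the second with every PyMT BrM below both EO771 BrM. The dimmer Pglyrp1 probe had 0.19 (SE 0.50). Without PyMT BrM 1, Ngp, Camp and Ltf were called higher in PyMT BrM, with 4.05 (SE 0.63, adjusted p = 0.00628), 3.12 (SE 0.52, adjusted p = 0.00852) and 3.83 (SE 0.66, adjusted p = 0.00980), where 0.378% of all probes were called higher. The dimmer Ltf probe had 0.46 (SE 0.85) over all arrays, with values near the median signal in both models.

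**Figure D3:**
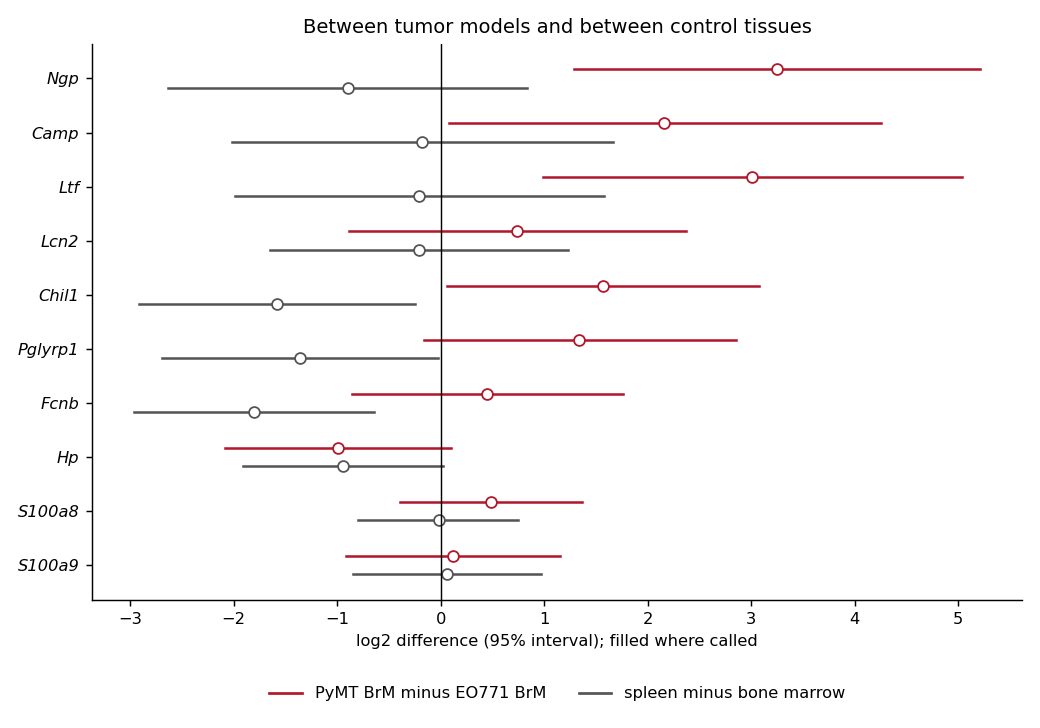
Log2 difference (horizontal axis, points, with 95% intervals as lines) of the 10 genes between PyMT BrM and EO771 BrM (red) and between spleen and bone marrow (grey). Open points were not called by limma, and none is filled; Ngp and Ltf lie farthest to the right in red, and Fcnb farthest to the left in grey.

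The 6 BrM arrays had mean signals over the 10 genes of 6.73, 8.26, 9.48 and 9.01 (PyMT BrM 1 to 4) and 7.25 and 7.06 (EO771 BrM 1 and 2). The mean of 7 neutrophil markers outside the 10 genes was also highest in PyMT BrM 3 (8.0) and lowest in PyMT BrM 1 (6.52). Between these the order differed, with 7.26 and 6.79 in EO771 BrM 1 and 2 and 7.21 and 7.15 in PyMT BrM 2 and 4. Of the lists described below, azurophil granule genes were highest in PyMT BrM 3 (7.93). Other specific and gelatinase granule genes (7.87) and neutrophil surface and signaling genes (8.31) were highest in EO771 BrM 1. T and NK cell markers were also highest in PyMT BrM 3 (6.22, against 4.02 to 5.52 in the other 5). Their part in the spread of the 10 genes was not tested. Arrays of spleen and bone marrow had means over the 10 genes of 12.64 to 13.84 and 13.73 to 13.74.

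PyMT spleens were compared with naive spleens to see whether spleens of tumor-bearing mice had another level. Whether the naive mice were irradiated and transplanted is not given, so the tumor and these treatments cannot be told apart here. By limma 0 of the 10 genes were called, where 0.115% of all probes were. An unadjusted p under 0.05 by limma was found for 0 of the 10. Of all 45281 probes 4591 (higher in PyMT spleens) and 4208 (lower) had one. All differences were above 0, between 0.08 (Lcn2) and 1.22 (Fcnb, SE 0.63, adjusted p = 0.316). The second Fcnb probe had 1.53 (SE 0.63, adjusted p = 0.208, unadjusted under 0.05), with each PyMT spleen above both naive spleens, and the dimmer Ltf probe 0.01 (SE 0.90) with overlap. For Camp, Ltf, S100a8 and S100a9 each PyMT spleen was above both naive spleens, as for 17.3% of all probes, by differences of 0.14 to 0.29 with SE of 0.42 to 1.01. Without PyMT spleen 2 Fcnb had 0.44 (SE 0.44), and Lcn2 and Chil1 had -0.06 (SE 0.91) and -0.34 (SE 0.64).

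**Figure D4:**
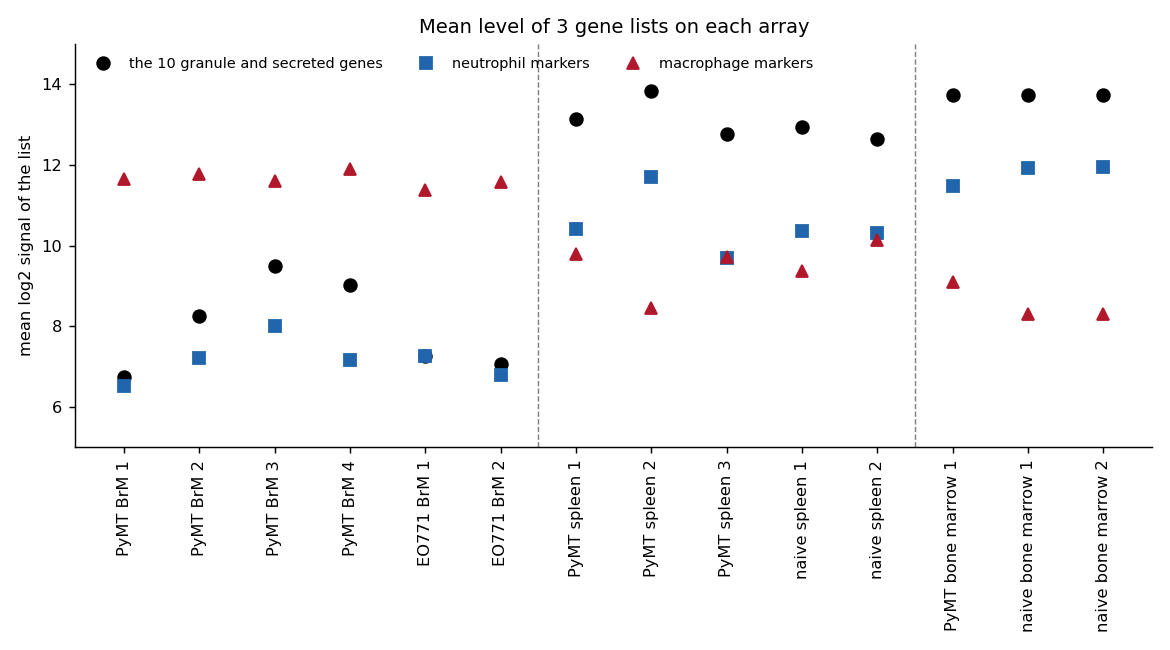
Mean log2 signal (vertical axis) of the 10 genes, of 7 other neutrophil markers and of 11 macrophage markers on each of 14 arrays; dashed lines separate BrM, spleen and bone marrow. Macrophage markers are at 11.37 to 11.90 in BrM and lower elsewhere, and PyMT spleen 2 is the spleen most like bone marrow in all 3 lists.

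Markers of several cell types differed between BrM and the control tissues, in both directions. Of 7 neutrophil markers (Cxcr2, Csf3r, Mmp8, Mmp9, Retnlg, Cd177 and Cebpe) 6 were called lower in BrM and 0 higher, and their mean signal was 6.52 to 8.0 in BrM, 9.68 to 11.69 in spleens and 11.47 to 11.95 in bone marrow. Of 11 macrophage markers 7 were called higher and 0 lower, with means of 11.37 to 11.90 in BrM, 8.44 to 10.14 in spleens and 8.31 to 9.09 in bone marrow. Of 5 monocyte markers 4 were higher, with means of 8.03 to 9.50 in BrM, 6.18 to 7.39 in spleens and 6.90 to 7.15 in bone marrow. B cell markers (3 of 4), erythroid markers (3 of 4) and T and NK cell markers (2 of 5) were called lower, and 2 of 5 epithelial markers higher. Of 5 platelet markers 1 was higher and 1 lower. By limma 0 of 5 eosinophil and basophil markers, 0 of 3 cycling markers and 0 of 10 reference genes were called, with 2, 0 and 3 at an unadjusted p under 0.05. Of 4 genes of the sort and of all leukocytes, Itgam, Ptprc, Itgb2 and Tyrobp, 0 were called by limma and 0 had an unadjusted p under 0.05. The part of these cell types in the fall of the 10 genes was not tested.

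Other neutrophil granule genes were described from lists written down by name. Of 24 further genes of specific and gelatinase granules 13 were called lower and 1 higher in BrM, with a median of -2.42, where 3.12% of all probes were called lower and 3.80% higher. The largest falls were in Itgb2l, an integrin of neutrophils (-6.80, SE 0.61, limma adjusted p = 1.55e-06), and Cd177, a surface antigen of neutrophils (-5.68, SE 0.62, adjusted p = 1.51e-05). The gene that rose was Arg1, which encodes arginase 1, stored in granules of human neutrophils and expressed by macrophages of mice (7.12, SE 0.74, adjusted p = 9.39e-06).

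Of 12 genes in the azurophil granule list 8 were called lower and 1 higher, with a median of -4.13. The list is wider than azurophil granule proteins, as it also holds Prg2, Prg3, Rab27a, Serpinb1a, Ms4a3 and Igfbp4. Mpo, which encodes myeloperoxidase, had 3.87, 6.26, 8.76 and 6.11 in PyMT BrM and 3.97 and 3.80 in EO771 BrM, against 10.95, 13.11 and 10.83 in PyMT spleens, 10.89 and 10.58 in naive spleens, 13.47 in PyMT bone marrow and 12.87 and 12.84 in naive bone marrow. PyMT BrM 3 was the highest BrM array, as it was for Ngp, Camp and Ltf. The difference was -6.48 (SE 0.75, limma adjusted p = 2.36e-05), and Elane, neutrophil elastase, had -5.01 (SE 0.57, adjusted p = 2.25e-05). Ctsc, a lysosomal protease that activates granule proteases and occurs in macrophages too, was higher (2.03, SE 0.34, adjusted p = 7.85e-04).

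Among 17 neutrophil surface and signaling genes 9 were called lower and 0 higher (median -1.20). The largest falls were in Mrgpra2b, a receptor gene (-4.85, SE 0.52), and Ifitm6, of an interferon-induced membrane protein family (-4.62, SE 0.78).

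Of 14 transcription factors of granulocyte development 3 were called lower and 3 higher, with a median of 0.44. Cebpe had 5.14, 6.70, 8.16 and 6.02 in PyMT BrM and 6.48 and 5.92 in EO771 BrM, against 10.64, 12.65 and 10.16 in PyMT spleens, 10.58 and 9.68 in naive spleens, 13.10 in PyMT bone marrow and 12.68 and 12.58 in naive bone marrow. It fell by 5.11 (SE 0.59, limma adjusted p = 2.37e-05). Ets1, an ETS factor also expressed in lymphocytes, had -3.35 (SE 0.25, adjusted p = 2.49e-07). The third was Gfi1, a repressor needed for neutrophil development (-3.13, SE 0.44, adjusted p = 1.47e-04), named after its values were seen. Cebpa, which acts early in myeloid commitment, and Cebpg were higher, with 2.11 (SE 0.30, adjusted p = 1.88e-04) and 1.04 (SE 0.18, adjusted p = 0.00110), and Cebpb, also named after its values were seen, had 0.92 (SE 0.22, adjusted p = 0.00983). Spi1, which encodes PU.1, had -0.50 (SE 0.30, adjusted p = 0.356) and was likewise named after its values were seen.

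**Figure D5:**
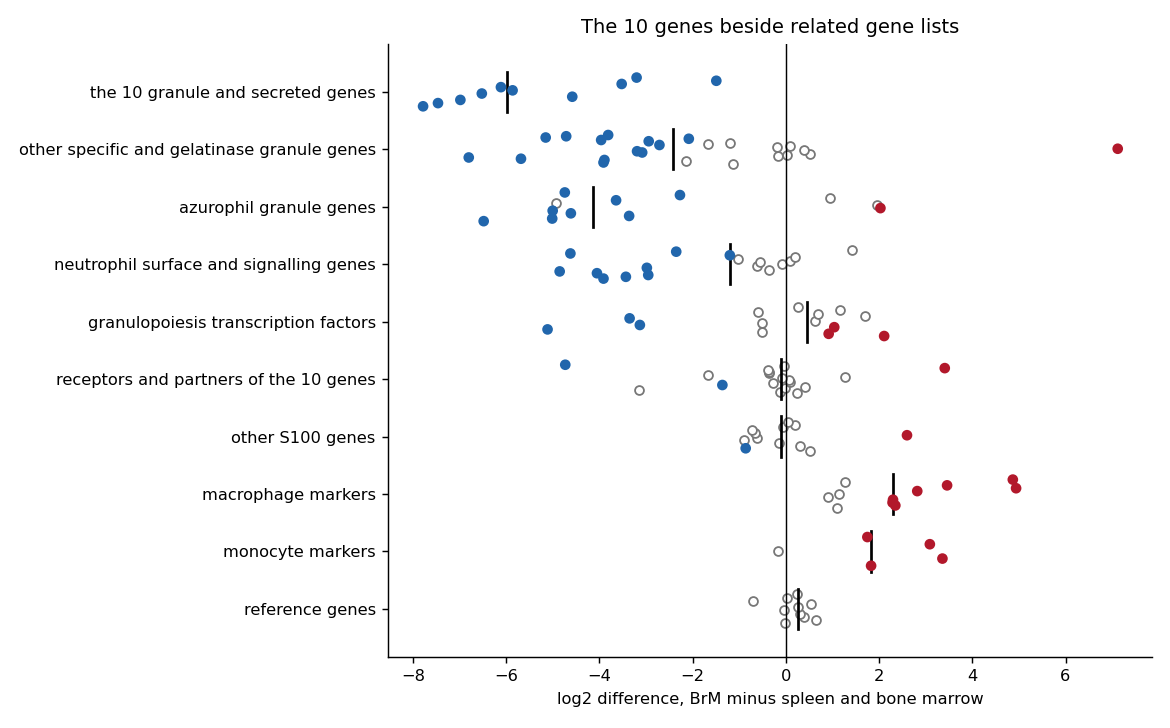
Log2 difference between BrM and spleen and bone marrow (horizontal axis) of the 10 genes and of 9 gene lists, 1 point per gene. Filled points were called by limma (blue lower, red higher in BrM), open points were not, and bars are medians; the 10 genes, with a median of -5.99, lie on the lower side throughout, whereas the transcription factors have called genes on both sides.

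Of 18 receptors and partners of the encoded proteins 1 was called higher, 2 lower and 15 neither, with a median of -0.10. Ager, the receptor RAGE of calprotectin, was lower (-1.36, SE 0.20, limma adjusted p = 2.19e-04), with 5.28 to 6.22 in BrM and 6.57 to 7.49 elsewhere. Tlr4, another known receptor of calprotectin, had 0.41 (SE 0.18, adjusted p = 0.165). Cd36 and Cd33, also listed as its partners, had -0.28 (SE 0.21) and 0.09 (SE 0.37). The lipocalin 2 receptors Slc22a17 and Lrp2 had 0.24 (SE 0.28) and -0.13 (SE 0.16). Cd163, the scavenger receptor for complexes of haptoglobin and hemoglobin on macrophages, had -3.14 (SE 0.79, adjusted p = 0.0143), and Hpx, hemopexin, -0.02 (SE 0.20). The Chil1 receptor chain Il13ra2 and its partner Tmem219 had 0.07 (SE 0.40) and -0.08 (SE 0.30). Over all arrays Cd36 had signals of 2.84 to 3.99 and Il13ra2 of 1.33 to 4.22. Slc22a17, Lrp2 and Hpx lay between 3.64 and 5.3. Near the median signal of 4.06 background limits what a difference of these genes can show.

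Lrp1, a receptor of lactoferrin, had 1.28 (SE 0.44, adjusted p = 0.0727), and Fpr2, the receptor of the cathelicidin peptide, -1.67 (SE 0.45, adjusted p = 0.0209). Trem1, linked to Pglyrp1 as a receptor, had -0.35 (SE 0.39). Pglyrp3 and Pglyrp4 had -0.36 (SE 0.24) and -0.39 (SE 0.21), with signals of 1.72 to 3.46 and 3.7 to 5.08, near background. Fcna, the second mouse ficolin and known from macrophages of spleen and liver, was lower (-4.73, SE 0.86, limma adjusted p = 0.00136). Masp1, a protease of the lectin pathway that acts with ficolins, was higher (3.41, SE 0.37, adjusted p = 1.25e-05). It had 4.73 to 6.74 in BrM and 1.31 to 3.75 elsewhere, below the median signal of 4.06, so background limits the size of this rise. Masp2 had -0.03 (SE 0.23), with signals of 3 to 4.42, also near background.

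Families of the 10 genes were mostly not called. Of 12 other S100 genes S100a10, the partner of annexin A2, was called higher (2.60, SE 0.52, limma adjusted p = 0.00293) and S100a3 lower (-0.86, SE 0.20, adjusted p = 0.00787), with a median of -0.10. S100a3 had 3.24 to 4.21 in BrM and 4.14 to 5.09 elsewhere, near the median signal of 4.06. Of 6 other chitinase-like genes, with a median of -1.42, Chil5 was lower (-4.20, SE 0.71, adjusted p = 7.13e-04). Of 10 other lipocalins 0 were called by limma and 1 had an unadjusted p under 0.05. Their mean signals were 3.81 to 4.11 in BrM, 3.72 to 4.13 in spleens and 3.83 to 4.07 in bone marrow. At this level, near the median signal, background limits what a difference can show. Between Camp and Ltf on chromosome 9 lie 28 coding genes other than Ngp, of which 26 were measured. By limma 0 of the 26 were called and 8 had an unadjusted p under 0.05, with a median of -0.03. Of all 45281 probes 5520 (higher in BrM) and 4874 (lower) had one. The lowest of the 26 was Cdc25a (-1.66, adjusted p = 0.0133), which was named after its values were seen.

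Across the 14 arrays each of the 10 genes correlated with the mean of the other 9 with a Pearson r between 0.922 (Hp) and 0.992 (Pglyrp1). The genes outside the 10 with the pattern most like their mean, of 19047 compared, were Tbc1d10c (r = 0.987), Chst15 (0.986), Slc6a13, Rab11fip4 and Dennd3 (0.985 each). The arrays share 2 clusters, BrM against the rest, so these values are descriptions that rest largely on that contrast. Tbc1d10c, which encodes a GTPase-activating protein of leukocytes, had 7.14 to 8.76 in BrM and 11.58 to 11.92 in spleen and bone marrow.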

How the data were processed

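The authors deposited log2 signals of 14 Illumina MouseWG-6 v2 arrays, quantile normalized by them (sorted values of any arrays differed by at most 0.00192). Their processing notes name GenomeStudio 2011.1 and limma, whose version is not given in the sources used here, nor is the background correction. Each array had 80 values below 0. No detection p-values were used, and no probe was filtered. Of the 45281 probes, 34885 carried 1 gene symbol, 18 several and 10378 none. The number of arrays limits the precision.

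Differences were fitted with limma 3.58.1 (R 4.3.3, lmFit and eBayes, two-sided, Benjamini-Hochberg over all probes, called at an adjusted p under 0.01). A fit of 2 groups gave the pooled comparison, of 4 groups the PyMT and EO771 comparisons and their difference, and of 6 conditions, with the models weighted equally, the other comparisons. The fits were tested on simulated data. The 10 genes and the gene lists were chosen with earlier results of these data known. Named beside the 10 genes were the 2 largest called rises and falls of each list of related genes, every receptor or partner, and the 5 genes most like the 10, other names being marked as chosen after their values were seen or given as markers. Listed genes with no probe of their symbol (such as Ly6g) were not used here. All 7 neutrophil markers also stand in a list of related genes, Fpr2 and Trem1 in 2 of those lists, and Prg2 among azurophil genes and eosinophil markers, so that the lists are not separate. Alternatives covered the variance model, normalization, dim probes, the probes of a gene, the threshold, blocks, the samples in the fit and leaving out each array. One was added after seeing the data, a fit of 3 tissues with arrays weighted equally. Positions are those of the GRCm38 annotation.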

Additional observations from a re-analysis of the deposited data

How the results depend on the processing

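The pooled count of 10 genes lower in BrM was 10 under 13 other settings and without any single array. Counts without single arrays were 9 to 10 for the PyMT comparison, 5 to 10 for the EO771 comparison, 9 to 10 against spleen, 9 to 10 against bone marrow, 0 to 1 for spleen minus bone marrow, 0 to 3 for PyMT minus EO771 BrM, and 0 for the difference between models and for PyMT minus naive spleen. The lowest EO771 count (5) was without EO771 BrM 2, the 1 in spleen minus bone marrow without PyMT spleen 2, and the 3 without PyMT BrM 1. Without the PyMT bone marrow array, comparisons with bone marrow that weight PyMT and naive arrays equally could not be fitted. EO771 BrM minus naive bone marrow gave 9 in the fit of all arrays, with a median of -7.44 against -0.01 over all probes. The share of all probes called in that contrast was not counted. The mouse code as a fixed block gave 6 in the PyMT comparison, and PyMT BrM minus PyMT bone marrow gave 5 in the fit of all arrays. Deviations of PyMT BrM and spleens with the same code correlated by -0.0443 to -0.00479, and those with the same title number by -0.00479 to 0.053. Neither random block moved a count by more than 1.5 times.

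Signs turned only where differences were not called and were smaller than their SE, up to 0.38 (SE 0.73) for Chil1 in PyMT minus naive spleen. The difference between models turned for Fcnb (0.06) to -0.03 centred on reference genes, -0.04 with cyclic loess, -0.41 with the mean of probes, -0.32 with naive bone marrow arrays averaged, and -0.33 to 0.66 without single arrays. For S100a9 (0.06) it was -0.04 centred on reference genes, -0.06 with cyclic loess, -0.00 with the mouse code as a random block, and -0.28 to 0.45 without single arrays. Spleen minus bone marrow turned for S100a8 to 0.08 centred on reference genes and 0.01 in the added fit of 3 tissues, and for S100a9 to -0.02 with cyclic loess and -0.06 in naive arrays only. Without single arrays S100a8 there had -0.05 to 0.01, S100a9 in PyMT minus EO771 BrM had -0.22 to 0.52, and in PyMT minus naive spleen Lcn2 had -0.19 to 0.35 and Chil1 -0.34 to 0.97. The cause was not tested. Centring on reference genes moved the median of all probes in the pooled comparison by -0.17 and the share of higher among called probes to 35.1%, against 54.9%. That share was 31.8% against 61.0% in the PyMT comparison, 46.9% against 63.3% in the EO771 comparison, 31.3% against 54.4% for BrM minus spleen, 38.7% against 53.8% for BrM minus bone marrow and 50.6% against 36.7% for PyMT minus EO771 BrM. Saturation near the brightest signal limits the control values, and background the BrM values.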
